A study of Mus musculus with 2 samples.

Results

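RNA helicases and splicing factors were compared between 2 clones of mouse mesoangioblasts, D351 and D16. The set was defined by name: probe sets with exactly 1 annotated gene symbol that starts with Ddx, Dhx, Srsf, Sf3, Hnrnp, Prpf, Snrp, Lsm or Rbm, leaving out genes of chromosome 4 from Acer2 to Svbp. It held 120 of the 12477 probe sets on the array and 77 of the 7542 named genes, and the chromosome 4 condition removed 0 probe sets. The rule uses names only, not measured values, but the set was chosen with earlier results of these data known.

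Each clone was hybridised once, to an Affymetrix MG-U74B array. Mesoangioblasts are progenitor cells associated with vessel walls. Both clones came from dorsal aorta of C57BL6 embryos at day 9.5, cultured as an explant for 5 days and cloned by limiting dilution on mitomycin-treated primary embryonic fibroblasts, then expanded on gelatin without any treatment named in the labels. Each group is therefore 1 clone, and each value below compares 1 RNA sample of D351 with 1 of D16. There was no replicate, so no difference could be set against culture-to-culture spread and no p-value was computed.

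Pre-mRNA splicing is carried out by the spliceosome, which assembles anew on each intron from small nuclear ribonucleoproteins (snRNPs) and many further proteins. RNA helicases of the DEAD-box (Ddx) and DEAH-box (Dhx) families use ATP to remodel RNA and RNA-protein complexes. Some drive the steps of splicing, and others work in ribosome assembly, translation, RNA decay or the sensing of viral RNA. SR proteins (Srsf) and heterogeneous nuclear ribonucleoproteins (Hnrnp) bind pre-mRNA and influence which splice sites are used, and Rbm genes encode a loose group of proteins named for an RNA-binding motif.

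Values are signal intensities as deposited. A floor was set at 16.8, the pooled median of the 2 arrays, and lower signals were replaced by it before D351 was divided by D16. Where the floor replaced 1 of the 2 signals the ratio is only a bound, and where it replaced both no ratio is given. Each gene was represented by its measured probe set with the highest mean signal, and genes at least 2-fold apart passed the size rule. Probe set names end plainly in _at unless another ending is given. Other endings (_f, _i, _r, _g) belong to probe sets that may also detect related transcripts or were designed with fewer constraints.

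Of the 77 genes, 57 were measured, 51 of them above the floor on both arrays. Clone D351 had 5 genes at least 2-fold lower than D16 and 0 at least 2-fold higher. The 5 were Prpf4, a protein of the U4/U6 snRNP, Rbm28, Ddx27 and Ddx31, which work in the nucleolus on ribosome assembly, and Rbm15b, a partner of the enzyme complex that writes N6-methyladenosine on RNA. Over all 4922 measured genes 8.57% were at least 2-fold lower in D351 and 9.49% at least 2-fold higher. The share of members on the lower side (8.77%) was thus near that of all genes, while on the higher side the array-wide share had no counterpart among the members.

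The promoters of these 5 genes are shown because they are the members furthest apart between the clones. The sequences are RefSeq's, from assembly GRCm38.p6, and cover 250 bases before to 50 after the first start listed for each gene, written 5′ to 3′ on the gene's strand. Capitals mark matches, on either strand, to 5 motifs. These were the E-box, spelled CACGTG, the CCAAT box, spelled as in its name, the GC box, spelled GGGCGG, the ETS motif, spelled CCGGAAG, and the E2F motif, spelled TTTCGCGC or, as an alternative, TTTGGCGC.
Prpf4, chr4:62408533-62408832, plus strand: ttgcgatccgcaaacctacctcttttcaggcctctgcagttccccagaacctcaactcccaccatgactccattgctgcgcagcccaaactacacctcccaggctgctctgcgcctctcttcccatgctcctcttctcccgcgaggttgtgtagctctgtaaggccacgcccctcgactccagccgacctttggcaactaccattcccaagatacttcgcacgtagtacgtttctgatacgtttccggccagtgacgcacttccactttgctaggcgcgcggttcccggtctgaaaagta
Rbm28, chr6:29164675-29164974, minus strand: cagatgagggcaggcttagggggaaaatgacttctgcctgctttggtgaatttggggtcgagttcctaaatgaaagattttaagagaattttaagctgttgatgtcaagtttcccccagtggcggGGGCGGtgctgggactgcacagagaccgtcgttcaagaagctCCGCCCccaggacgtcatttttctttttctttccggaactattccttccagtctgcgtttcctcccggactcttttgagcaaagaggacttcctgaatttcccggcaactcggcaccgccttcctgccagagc
Ddx27, chr2:167015063-167015362, plus strand: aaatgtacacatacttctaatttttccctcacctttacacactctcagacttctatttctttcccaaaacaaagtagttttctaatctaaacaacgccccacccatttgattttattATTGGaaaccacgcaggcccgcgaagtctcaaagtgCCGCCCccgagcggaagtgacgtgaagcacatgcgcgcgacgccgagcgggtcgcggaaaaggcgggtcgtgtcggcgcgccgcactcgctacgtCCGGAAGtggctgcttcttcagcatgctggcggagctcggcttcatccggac
Ddx31, chr2:28840156-28840455, plus strand: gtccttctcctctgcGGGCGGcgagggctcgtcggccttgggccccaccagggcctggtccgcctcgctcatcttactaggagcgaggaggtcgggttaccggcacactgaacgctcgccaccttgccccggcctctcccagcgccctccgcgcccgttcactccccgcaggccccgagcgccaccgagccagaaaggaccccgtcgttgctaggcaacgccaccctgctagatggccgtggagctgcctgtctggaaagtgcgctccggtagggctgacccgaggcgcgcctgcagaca
Rbm15b, chr9:106887026-106887325, minus strand: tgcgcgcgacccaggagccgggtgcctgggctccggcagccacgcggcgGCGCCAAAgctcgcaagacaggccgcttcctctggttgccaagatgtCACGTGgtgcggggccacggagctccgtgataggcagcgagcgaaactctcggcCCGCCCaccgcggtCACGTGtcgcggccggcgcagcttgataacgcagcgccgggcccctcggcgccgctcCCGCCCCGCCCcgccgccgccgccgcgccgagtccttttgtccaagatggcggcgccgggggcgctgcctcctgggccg

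The 5 promoters shared no single motif of those searched. Rbm15b held 2 E-boxes, 3 GC boxes, of which 2 overlap, and 1 E2F motif. Ddx27 held 1 CCAAT box, 1 GC box and 1 ETS motif, Rbm28 had 2 GC boxes and Ddx31 1, and the Prpf4 window held none of these letters. Promoters were listed for 66 of the 77 members. A GC box stood in 59.1% of them, against 61.2% of the 6040 promoters of named genes on the array and 35.9% of all 27025 in the table. An ETS motif stood in 22.7% of member promoters, 15.6% of those of array genes and 9.12% of all. The E-box figures were 12.1%, 9.21% and 7.24%, those for the CCAAT box 47.0%, 38.0% and 37.9%, and those for E2F 4.55%, 1.37% and 0.833%. The E2F share of the members rests on 3 promoters. A match describes these letters and shows no binding.

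Prpf4 had the largest difference. It read 42.1 in D351 and 127.2 in D16, which is 3.02-fold lower in D351 (log2 ratio -1.60). Its other probe set read 16.7 in D351, just under the floor, and 31.9 in D16, so that its log2 ratio was at most -0.93. Both probe sets therefore had their lower value in D351.

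Ddx27 was lower in D351 on both of its probe sets, with 35.9 and 31.1 in D351 against 82.7 and 68.9 in D16. With log2 ratios of -1.20 and -1.15, it was the only member gene with 2 probe sets past 2-fold. Ddx31 read 21.3 in D351 and 46.2 in D16 on its 1 probe set (2.17-fold lower in D351), close to the floor in D351.

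Rbm28 read 23.7 in D351 and 61.3 in D16 (2.59-fold lower in D351). Its other 2 probe sets, with 15.0 and 4.0 in D351 and 15.8 and 3.3 in D16, were under the floor on both arrays, so this ratio rests on 1 probe set. Rbm15b read 69.1 in D351 and 154.7 in D16 (2.24-fold lower in D351), but its other probe set read 43.1 in D351 and 50.3 in D16, a log2 ratio of -0.22. The 2-fold difference of Rbm15b was thus not shared by its probe sets.

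**Figure D1:**
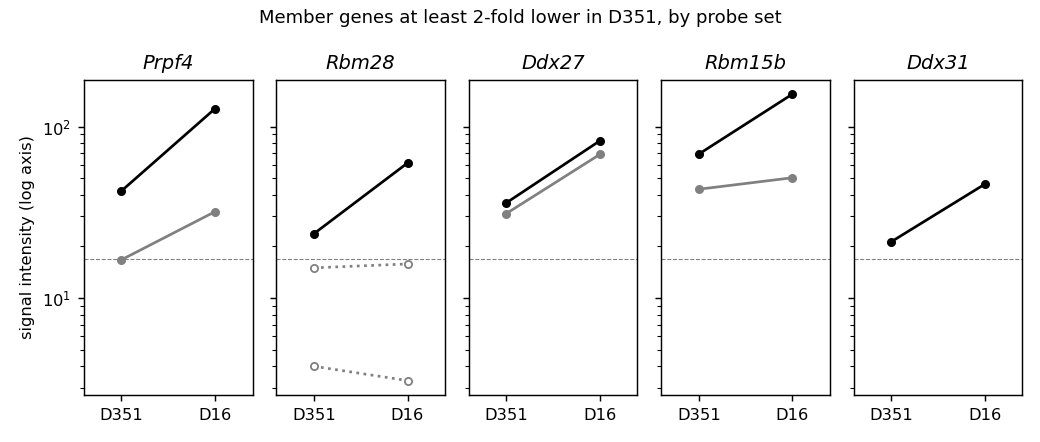
Signal intensity (log axis) in D351 and D16 of every probe set of the 5 member genes at least 2-fold lower in D351. Lines join the values of a probe set, black for the one that represents the gene and grey for others. Open points are probe sets under the floor of 16.8 (dashed) on both arrays. Prpf4 and Ddx27 are lower in D351 on both probe sets, and Rbm15b is close to equal on one.

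As a set, the members lay closer to equal signals than genes at large. Of the 57 measured genes, 91.2% were less than 2-fold apart, against 81.9% of all 4922 measured genes, and 73.7% were less than 1.5-fold apart, against 60.3%. The SD of the log2 ratios was 0.53 over members and 0.83 over all genes. The narrower spread lay on the D351 side: the upper quartile was 0.20 for members and 0.44 for all genes, while the lower quartiles were -0.54 and -0.47. Among genes above the floor on both arrays the SDs were 0.55 for the 51 members and 0.77 for 4065 genes. Between the clones, Pearson's r of the log2 signals was 0.904 over the 63 member probe sets above the floor on both arrays and 0.809 over all 5509 such probe sets. These points share 2 arrays and are not replicates.

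**Figure D2:**
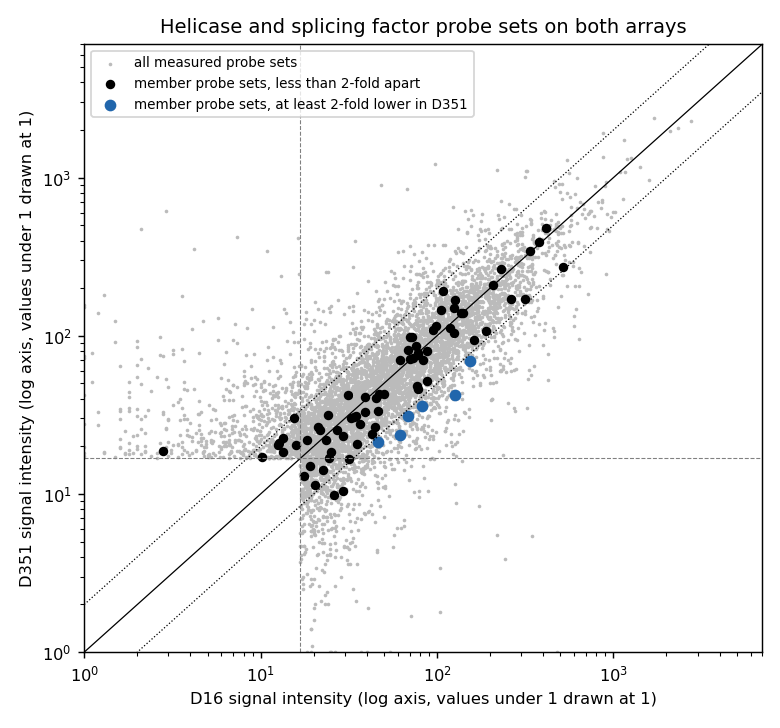
Signal of each measured probe set on the D351 array (vertical) and the D16 array (horizontal), both log axes, with all probe sets in grey and members in black or blue. The solid line marks equal signals, dotted lines 2-fold before values are raised to the floor, and dashed lines the floor of 16.8. The 6 blue member probe sets, at least 2-fold lower in D351 after that step, all lie below the diagonal, and 0 member probe sets are 2-fold higher in D351, against 7.99% and 9.23% of all measured probe sets.

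The median log2 ratio of the members was -0.09, with 24 genes above 0 and 33 below. Over all measured genes the median was -0.01, with 2401 above 0 and 2495 below. At 1.5-fold, 14 members (24.6%) were lower in D351 and 1 (1.75%) was higher, whereas 20.4% and 19.3% of all genes lay on those sides. The members' share on the lower side was thus close to that of all genes at either threshold, and the gap was on the higher side. Just short of the 2-fold rule lay Hnrnpul1, at 1.91-fold lower in D351.

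**Figure D3:**
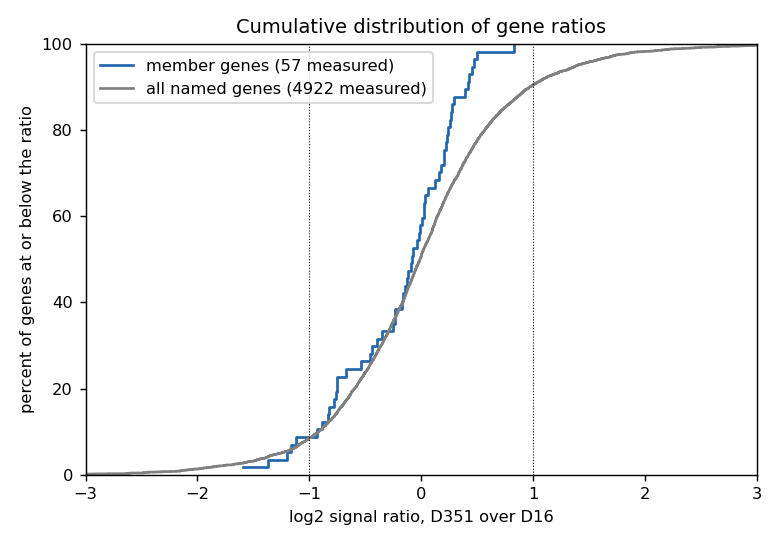
Cumulative share of genes (percent, vertical) at or below a log2 ratio of D351 over D16 (horizontal), for the 57 measured member genes and all 4922 measured named genes. Dotted lines mark 2-fold. The curves run close together below 0, and above 0 the member curve is steeper and reaches 100% at 0.83, before the upper 2-fold line, while 9.49% of all genes lie beyond it.

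The members are described below by role. The roles were assigned from known functions with the values in view, so counts within a role describe the set and are no independent evidence. Genes that build the common core of snRNPs and help assemble them went both ways. Snrpf, one of the Sm proteins that ring the spliceosomal RNAs, was among the brightest members and was nearly equal, with 391.7 in D351 and 377.1 in D16. Lsm6, part of the ring on U6 RNA, read 16.8 and 9.9 in D351 and 24.4 and 25.9 in D16 on its probe sets, log2 -0.54 and at most -0.62. Lsm10, of the U7 snRNP that processes histone messages, leaned the other way, with 169.5 in D351 and 126.3 in D16 (0.42). Prpf39, which works with the U1 snRNP, read 104.8 in D351 and 124.8 in D16 (-0.25). Ddx20, the helicase of the SMN complex that loads Sm rings, read 20.6 in D351 and 35.4 in D16 (-0.78). Other proteins of that complex were also lower in D351. Gemin2 read 26.7 in D351 and 60.8 in D16 (2.28-fold lower in D351), and Gemin7 had a log2 ratio of -0.33.

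Proteins of the U2 snRNP and its helpers recognise the branch site. Their role group, in which the splicing regulators Rbm5 and Rbm25 were also placed, stayed within 1.5-fold in 7 of 7 measured genes. So did 73.7% of all measured members and 60.3% of all measured genes. Sf3b1, the large subunit that holds the branch site, read 31.4 in D351 and 24.0 in D16 (0.39). Ddx46, the helicase that prepares U2 for the branch site, had log2 ratios of 0.47 and 0.42 on its measured probe sets, and Ddx42, which also binds the SF3b complex, 0.45. Sf3a1 (-0.35) and Sf3b2 (-0.23, an _f probe set) lay below 0. Rbm5, a splicing regulator that binds early spliceosomes, read 344.0 in D351 and 338.3 in D16 on its brightest probe set. A dim Rbm5 probe set had a log2 ratio of at least 0.85 and another -0.13. Rbm25, another splicing regulator, was near equal on both measured probe sets (-0.04 and -0.15).

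Of the tri-snRNP and catalytic-stage genes, 6 of 8 measured lay below 0, as did 33 of all 57 members and 2495 of all 4922 measured genes. Prpf3, which binds Prpf4 on the U4/U6 RNA duplex, read 26.5 in D351 and 44.7 in D16 (-0.75). Ppih, the cyclophilin of the same subcomplex and no member by name, read 2.6 in D351 and 26.3 in D16, a log2 ratio of at most -0.65. All 3 proteins of that subcomplex were thus on the same side. Prpf4 was past 2-fold, Prpf3 was not, and the size of the Ppih difference is open because its ratio is a bound. The kinase Prpf4b (-0.09, an _f probe set) and the DEAH-box helicases Dhx38 (-0.12) and Dhx8 (0.03 on its brightest, a _g probe set) were near equal. Dhx8, which releases the finished message, gave -0.09 and 0.19 on its other probe sets. Dhx35, found in the catalytic spliceosome, read 46.4 in D351 and 78.1 in D16 (-0.75). Prpf38b had -0.24, with 0.33 on another probe set, and Prpf18, a second-step factor, had 0.42 on an _i probe set.

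**Figure D4:**
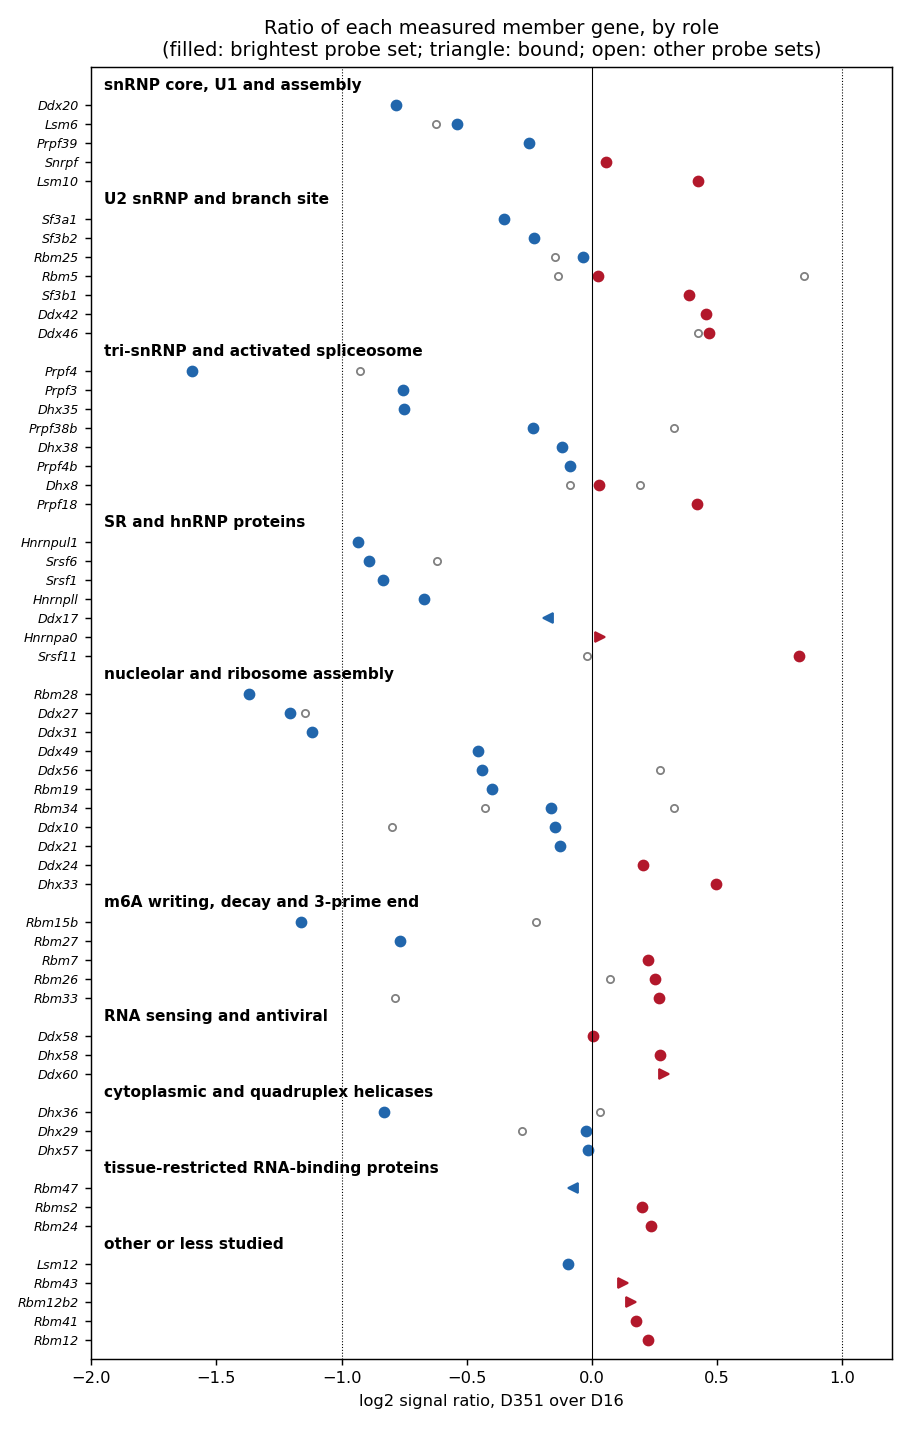
Log2 signal ratio of D351 over D16 (horizontal) for each of the 57 measured member genes, grouped by role. Filled points are the brightest probe set, red above and blue below 0, triangles are bounds that point away from equality, and open circles are other measured probe sets. Dotted lines mark 2-fold. Of 11 nucleolar genes 9 lie below 0, as do 33 of the 57 members and 2495 of all 4922 measured genes. The filled points of the U2 group, which includes Rbm5 and Rbm25, lie within 1.5-fold, as do 73.7% of members and 60.3% of all genes. An open circle of Rbm5 lies outside it, at a bound of 0.85.

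Among SR and hnRNP proteins and a helicase that works with them, 4 of 7 measured members were between 1.5-fold and 2-fold lower in D351, a band that held 11.8% of all genes. Srsf1, a splicing enhancer that also acts in export and translation, read 24.1 in D351 and 43.0 in D16 (-0.84). Srsf6 read 170.1 in D351 and 314.9 in D16 on an _f probe set (-0.89) and 171.2 in D351 and 262.8 in D16 on a plain one (-0.62). Srsf11 went the other way on its brighter probe set, with 193.0 in D351 and 108.7 in D16 (0.83, the highest ratio of any member gene), but read 77.4 in D351 and 78.5 in D16 on the other. Hnrnpul1, the brightest member in D16, read 272.1 in D351 and 519.7 in D16 (-0.93), while its other probe set, of ending _i, gave 1.0 or less on each array. Hnrnpll, a regulator of CD45 splicing in lymphocytes, had -0.67. Hnrnpa0, on an _r probe set, had a bound of at least 0.03, and Ddx17, a co-factor of splicing and microRNA processing, at most -0.18. Srpk1, the kinase that phosphorylates SR proteins and no member by name, read 44.9 in D351 and 95.5 in D16 (2.13-fold lower in D351), with -0.91 on an _f probe set.

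Helicases and RNA-binding proteins of ribosome assembly were measured for all 11 genes of this role. Of the 11, 9 were below 0, as were 33 of all 57 members and 2495 of all 4922 measured genes. The median log2 ratio of the role was -0.40. Besides Rbm28, Ddx27 and Ddx31 it held Ddx49 (-0.46, an _f probe set), Rbm19 (-0.40), Rbm34 (-0.16) and Ddx21 (-0.13). Ddx10 read 30.6 in D351 and 33.9 in D16 on its brighter probe set (-0.15) and had at most -0.80 on the other. Ddx56 gave -0.44 on an _i probe set and at least 0.27 on another, and Rbm34 also gave at most -0.43 and at least 0.33 on further probe sets. Dhx33, which promotes ribosomal RNA transcription, read 98.4 in D351 and 69.9 in D16 (0.49), and Ddx24 read 108.8 in D351 and 94.4 in D16 (0.20).

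Genes of RNA decay, export and methylation had no common direction. Rbm7, of the complex that feeds nuclear RNA to the exosome, was the brightest member in D351, with 481.1 in D351 and 412.3 in D16 (0.22). Its other 3 probe sets were under the floor on both arrays. The related zinc finger proteins Rbm26 and Rbm27 differed in sign, with 81.3 in D351 and 68.3 in D16 for Rbm26 (0.25) and 51.9 in D351 and 88.2 in D16 for Rbm27 (-0.77). Rbm33 gave opposite signs on its probe sets, 149.5 in D351 and 124.1 in D16 on one (0.27) and 93.9 in D351 and 162.1 in D16 on the other (-0.79).

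Of the sensors of viral RNA, 2 were close to equal in the clones and 1 gave only a bound. Ddx58, which encodes RIG-I, read 208.5 in D351 and 208.0 in D16, the ratio nearest to 1 among Ddx genes. Dhx58, its relative LGP2, read 22.0 in D351 and 18.2 in D16 (0.27), and Ddx60 read 20.5 in D351 and 12.6 in D16, a bound of at least 0.29. Of the helicases that act on messenger RNA in the cytoplasm, Dhx29, a scanning factor of translation, read 72.2 in D351 and 73.4 in D16. Dhx57, less well studied, read 138.6 in D351 and 140.1 in D16. Dhx36, which unwinds G-quadruplexes, read 106.7 in D351 and 189.5 in D16 on its brighter probe set (-0.83) but 71.7 in D351 and 70.2 in D16 on the other.

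RNA-binding proteins known mainly from particular tissues were measured in 3 of 6 genes. Rbm24, a splicing regulator of heart and skeletal muscle, read 25.4 in D351 and 21.6 in D16 (0.23), and Rbm20, of heart muscle, stayed below the floor at 7.7 in D351 and 8.3 in D16. Rbm47, of epithelia, had a bound of at most -0.08. Rbms2 read 265.9 in D351 and 231.5 in D16 (0.20). Lsm12 (-0.10), Rbm12 (0.22), Rbm41, which binds the minor spliceosome's RNA (0.18), Rbm43 (at least 0.12) and Rbm12b2 (at least 0.15, an _r probe set) made up the rest of the measured genes.

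Under the floor on both arrays were 20 member genes, with signals up to 14.8 in D351 and 16.6 in D16. They were Ddx11, Ddx23, Ddx28, Ddx59, Hnrnpc, Hnrnph1, Hnrnpu, Lsm11, Snrpb, Rbm4b, Rbm6, Rbm20, Rbm39, Rbm46, Rbm48, Rbms3, Rbmx and Rbmx2, together with Rbm3os and Rbm46os, which are opposite-strand transcripts caught by the prefix and encode no member of the family. Ddx11 is a DNA helicase of the same superfamily. Hnrnpc was represented by an _r probe set alone and Snrpb by an _r and an _i probe set. A signal under the floor gives no ratio and does not show that a gene was silent.

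Taken by prefix, the 13 measured Ddx genes had a median log2 ratio of -0.15, the 8 Dhx genes -0.02, the 6 Prpf genes -0.24 and the 17 Rbm genes 0.12. The signs of the Ddx, Dhx and Rbm medians depended on the processing. The Dhx median was 0.0014 after loess. Ddx was 0.20 with the floor at the 75th percentile, where 5 genes were left. Rbm was -0.12 as a mean, and -0.01 with the floor at the 25th percentile. Of 18 member genes with several measured probe sets, 10 (55.6%) had all of them on one side of 0, against 65.4% of 1113 genes on the whole array. The median distance between the highest and lowest log2 ratio of a gene was 0.61 in these 18 and 0.50 in the 1113. Of the 57 member ratios, 42 were smaller in size than that distance of 0.61 between probe sets of 1 gene. At the nearby limit of 1.5-fold, 73.7% of members and 60.3% of all measured genes were closer to equal.

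Splicing genes outside the name prefixes were taken from lists of known components, and their counts stand beside the 8.57% lower and 9.49% higher of all genes. Of 13 measured genes of snRNP assembly and the tri-snRNP, 2 (15.4%) were at least 2-fold lower in D351 and 0 higher, with a median log2 ratio of -0.33. The 2 were Gemin2 and Ppil1, a cyclophilin of the activated spliceosome (75.5 in D351 and 158.4 in D16). Of 22 measured genes of later spliceosomal and exon junction complexes, 2 (9.09%) were lower and 1 (4.55%) higher (median -0.08). The export adaptor Alyref read 16.4 in D351 and 42.9 in D16, at least 2.55-fold lower in D351, and Smu1 was 2.17-fold lower on an _f probe set but had -0.12 on a plain one. Cdc40, a second-step splicing factor, was higher, with 127.7 in D351 and 52.3 in D16 (2.44-fold). Srrm2 had -0.55 on its brightest probe set and -0.41 on another plain one. An _r probe set of Srrm2 was 4.36-fold higher, with 249.2 in D351 and 57.2 in D16.

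Among 31 other splicing regulators and SR kinases 2 were lower, Srpk1 and Celf4 (49.4 in D351 and 109.0 in D16, with at most -0.74 on another probe set), and 0 higher, with a median of -0.12. The 2 are 6.45% of the list, no more than the share of all genes. A dimmer Rbfox2 probe set was 2.52-fold higher in D351 (87.0 in D351 and 34.5 in D16), while its brighter ones had 0.49 and 0.13. The bright regulators Mbnl2 (699.4 in D351 and 862.4 in D16) and Celf1 (352.0 in D351 and 321.9 in D16) were near equal. Of 5 other RNA helicases, Helz was higher, with 274.5 in D351 and 130.2 in D16 (2.11-fold) and at least 1.34 on another probe set. Dicer1, the nuclease of microRNA maturation, lay just short of 2-fold in the other direction (33.0 in D351 and 64.4 in D16, -0.96).

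**Figure D5:**
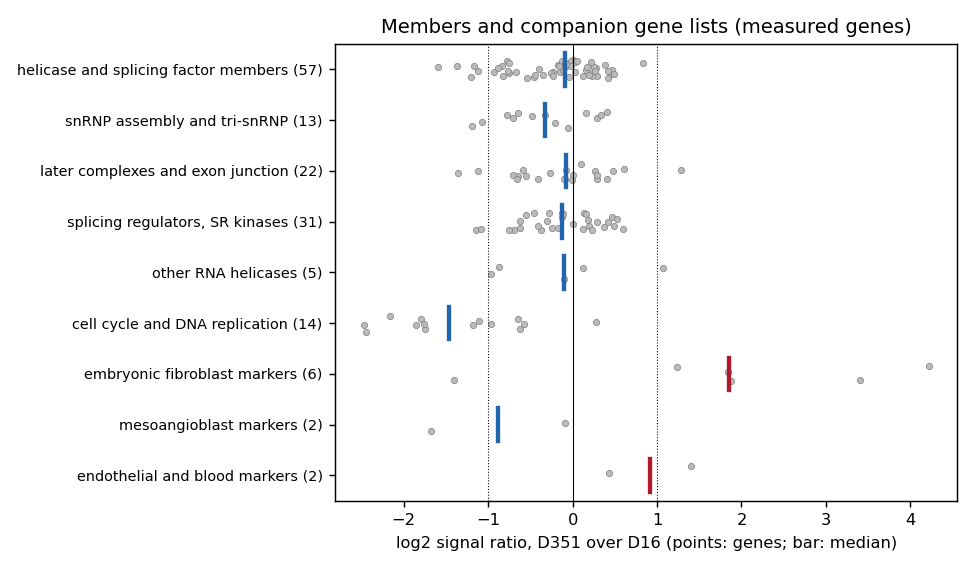
Log2 signal ratio of D351 over D16 (horizontal) for measured genes of the members and of the companion lists, with the number of genes in brackets. Points are genes and bars are medians, red above and blue below 0, with dotted lines at 2-fold. Members and splicing lists have medians between -0.33 and -0.08, while cell cycle genes have -1.46 and embryonic fibroblast markers 1.86.

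Other features also differed between the 2 arrays. For 14 measured cell cycle and replication genes the median log2 ratio was -1.46, with 9 at least 2-fold lower in D351, among them Ncapg, Ncapg2, Bub1b and Cenpe. Embryonic fibroblast markers (6 measured of 26 listed, signals between 60.1 and 900.3 in D351 and between 3.6 and 544.8 in D16) had a median of 1.86, with 5 higher in D351, among them Sfrp1, Aspn, Prrx1 and Col5a2. The sixth listed gene, Tcf4, was 2.65-fold lower in D351 (205.6 in D351 and 544.8 in D16), with -0.59 on another probe set. Whether Tcf4 marks embryonic fibroblasts was not checked here. The array held 2 of 12 mesoangioblast markers, Cd44 (1092.5 in D351 and 1164.5 in D16) and Cspg4 (26.1 in D351 and 83.3 in D16), so the labelled cell type could hardly be checked here. Endothelial and blood markers were measured for Flt1 (at least 1.41) and Runx1 (0.43). The 9 measured spike-in controls had a median of -0.52, 8 of them lower in D351. The part of any of these in the members' ratios was not tested.

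The place of the members in the genome was spread over 19 chromosomes, with 8 measured genes on chromosome 11, 7 on chromosome 2 and 5 or fewer on each of the others. Of the 7 on chromosome 2, Ddx27, Ddx31, Dhx35 and Srsf6 lay below 0 and Prpf18, Rbm12 and Rbm43 above. Their median log2 ratio, the value of Dhx35, was -0.75, against -0.12 for all 393 measured genes there. The 5 on chromosome 3 had the same median of -0.75, against 0.10 for all 249 genes. The 8 on chromosome 11 had a median of -0.03, against 0.11 for all 403 genes. For the 5 on chromosome 8 it was -0.16, against -0.05 for all genes there, and for the 5 on chromosome 13 it was 0.03, against -0.07. With each chromosome's median taken off, Prpf4 on chromosome 4 stood at -1.25 and the member median at -0.15.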

How the data were processed

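Total RNA of each clone was measured on 1 Affymetrix MG-U74B array. The authors deposited linear signal intensity values for each probe set. The software, background correction and presence calls are not given in the sources used here. Both arrays had a mean of 40.0 once 2% of values were trimmed at each end, which is what scaling to 1 target gives; a shift of all transcripts together would be lost. The number of arrays limits the precision.

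Gene names came from GEO's platform annotation, updated by gene identifier to RefSeq GRCm38.p6. The 66 controls were left out, and 178 probe sets with several symbols and 1652 without one were not named. Ratios, floor and size rule are as given in the results. They were tested on simulated data in which only bright probe sets were changed, by well over 2-fold. That test covered no true changes near 2-fold and none in signals near the floor. Background shares cover all measured named genes. The members and lists were chosen with earlier results of these data known, and the roles after the values were seen. By rule, named genes are every member past 2-fold, the brightest and most equal member of each prefix, and members whose probe sets oppose each other with 1 past 2-fold. From each companion list the rule takes up to 4 genes past 2-fold with the largest ratios. The companion genes Gemin7, Ppih, Srrm2, Rbfox2, Mbnl2, Celf1, Dicer1, Tcf4, Cd44 and Runx1 were named outside this rule. Other members are named to account for the whole set. Alternatives were a common median, quantile normalization, loess (span 0.3), other floors and size rules, other ways of joining probe sets, chromosome medians and list means. Python 3.11.15, numpy 2.4.6, pandas 2.3.3 and statsmodels 0.14.6 were used.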

Additional observations from a re-analysis of the deposited data

How the results depend on the processing

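With 1 array per clone no replicate could be left out. No paired analysis was possible because each clone has 1 array and no test was run. The 5 genes at least 2-fold lower in D351 became 2 with the floor at the 75th percentile (Prpf4 and Rbm15b, 6.45% of 31 measured, against 6.34% of all genes). They became 14 at a 1.5-fold rule (24.6%, against 20.4% of all genes) and 1 at a 3-fold rule (Prpf4, 1.75% against 2.78%). With the floor at the 25th percentile they became 6, where Rbm39 was added (8.11% of 74 measured members, against 11.5% of all genes). Joining probe sets by their median left 4, without Rbm15b (7.02%, against 7.88% of all genes). Taking chromosome medians off also left 4, without Ddx31 (7.02%, against 7.86%). The 0 genes higher became 1 at 1.5-fold (Srsf11, 1.75%, against 19.3% of all genes). With the floor at the 25th percentile they also became 1 (Rbm12b2, 1.35%, against 11.9%). The Rbm12b2 signals of 18.7 in D351 and 2.8 in D16 lie near or under the floor of 16.8. A common median, quantile normalization, loess, plain probe sets, both arrays at the floor and a minimum difference kept 5 and 0. The member median ranged from -0.15 to 0.0035 and was below 0 in 8 of 9 other settings, the exception being the floor at the 75th percentile, and the mean in its place was -0.20. Prpf medians could not be computed with plain probe sets or the floor at the 75th percentile, where under 5 genes were left. Low signal limits Ddx31 and Rbm28, which read 21.3 and 23.7 in D351 against a floor of 16.8.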
